A study of Mus musculus with 32 samples.

Results

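The retinoid handling genes examined here are 9 genes whose products carry, take up, store, make or break down vitamin A derivatives: Rbp4, Stra6, Crabp1, Crabp2, Dhrs3, Aldh1a2, Aldh1a3, Cyp26a1 and Cyp26b1. They were chosen by name, from what the genes are known to do and with earlier results of these data known, and found by their Ensembl identifiers among the 31053 gene rows of the deposited counts. All 9 were among the 15280 genes kept for testing (at least 1 CPM, reads scaled to a common library size, in at least 4 libraries). Aldh1a3 passed only through the ES cell libraries. Stra6 reached 1 CPM in 20 of the 32, nearly all from day 4 of differentiation, and would not have passed on the ES cell libraries alone. Cyp26b1 reached 1 CPM in 15 of the 32.

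The measurements were QuantSeq 3′ mRNA read counts of 32 libraries, in 8 groups of 4, from the mouse embryonic stem cell (ESC) line C1. C1 cells lack endogenous β-catenin and carry a transgene for β-catenin S33Y, a form that escapes degradation, fused to mCherry and a destabilising domain, which is transcribed when doxycycline (dox) is given and stabilised when trimethoprim (TMP) is given. Before collection or plating all groups were treated for 48 h, the C1 cells with 10 μM TMP alone and the others with TMP and 100 ng/mL dox, from which cells of middle (C1M) and high (C1H) mCherry signal were sorted. The 3 ESC groups C1, C1M and C1H were compared with 5 groups at day 4 of monolayer differentiation in plain NDiff227 medium. The study's methods have the cells in 2i and LIF before this, whereas the labels give serum and LIF. C1T came from C1 and was kept in TMP, C1MV and C1HV came from the sorted fractions and received neither inducer during differentiation (withdrawn), and C1MDT and C1HDT were kept in dox and TMP (constant induction). Everything came from a single knockout line rebuilt with a transgene, so that C1M and C1H differ from C1 by dox and the mCherry sort as well as by the fusion protein, and the withdrawn groups differ from C1T also by TMP. The labels call the 4 libraries of a group biological replicates without naming the cultures. If they shared one, the p-values measure only the spread between these samples.

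Each library held 1366951 to 3648787 reads assigned to genes, so that 3 reads were worth 0.837 to 2.14 CPM, and lower values rest on 0 to 3 reads. Reads on Ctnnb1, which cannot tell the transgene from the rest of the knocked-out gene, averaged 7.81 ± 2.62 CPM in C1 (SD, n = 4), 12.2 ± 3.84 in C1M and 41.1 ± 5.70 in C1H. By edgeR's quasi-likelihood test at an adjusted p under 0.05, the difference from C1 passed for C1H (log2 fold change 2.37) and not for C1M (0.61). On day 4 these reads averaged 6.21 to 9.74 CPM in C1T, C1MV and C1HV and 29.2 to 30.8 CPM in C1MDT and C1HDT. The pluripotency list of 7 genes summed to 5325 to 5554 CPM per library in C1, 4004 to 4284 CPM in C1M and 4053 to 4321 CPM in C1H, without overlap of C1 and the induced groups, and to 494 to 1440 CPM per day 4 library. Reads in no gene were 19.5% to 21.2% of uniquely aligned reads in C1 and C1M, 22.1% to 23.1% in C1H, 14.4% to 14.8% in C1T, 12.5% to 15.6% after withdrawal and 10.1% to 11.5% under constant induction, and the part of this shift in the differences below was not tested. The mesoderm list of 5 genes summed to 8.48 to 17.1 CPM in ESCs and 0.954 to 4.58 CPM on day 4.

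Retinol travels in blood bound to the carrier RBP4, often together with transthyretin, and enters cells through the receptor STRA6. Inside the cell retinol is oxidised to retinal and then, by the retinaldehyde dehydrogenases ALDH1A2 and ALDH1A3, to retinoic acid, while DHRS3 reduces retinal back to retinol. CRABP1 and CRABP2 bind retinoic acid in the cytoplasm, CRABP2 being known to hand it to nuclear receptors, and the cytochromes CYP26A1 and CYP26B1 oxidise it for removal. In the early embryo the place of synthesis and of breakdown sets where retinoic acid acts, and cultured ESCs are well known to differentiate when it is added.

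In build GRCm38 (mm10) the carrier and receptor genes lie as follows: Rbp4 (ENSMUSG00000024990) at chr19:38116629-38125281 on the minus strand, and Stra6 (ENSMUSG00000032327) at chr9:58063788-58153996 on the plus strand. The binding protein genes are Crabp1 (ENSMUSG00000032291) at chr9:54764748-54773110 on the plus strand, and Crabp2 (ENSMUSG00000004885) at chr3:87948666-87953376 on the plus strand. The metabolic genes are Dhrs3 (ENSMUSG00000066026) at chr4:144892827-144928209 on the plus strand, Aldh1a2 (ENSMUSG00000013584) at chr9:71215789-71296243 on the plus strand, and Aldh1a3 (ENSMUSG00000015134) at chr7:66390890-66427517 on the minus strand. The breakdown genes are Cyp26a1 (ENSMUSG00000024987) at chr19:37697798-37701536 on the plus strand, and Cyp26b1 (ENSMUSG00000063415) at chr6:84571414-84593908 on the minus strand. Reads of this protocol come from the 3′ ends of the transcripts.

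Promoter sequences are shown for Crabp1, the member with the widest range of group means in CPM, and for Cyp26a1, whose window holds a retinoic acid response element. A RefSeq promoter was at hand for 7 of the 9 genes in build GRCm38.p6, of which 6 had bases before the annotated gene start. The Crabp1 sequence ends just before the start of the gene on the plus strand, at chr9:54764498-54764747, with each GC box (GGGCGG, or CCGCCC on the other strand) in capitals. The Cyp26a1 sequence, at chr19:37697558-37697797 on the plus strand, has in capitals a GC box near its 5′ end and, at its 3′ end, 2 retinoic acid half-sites spaced by 5 bases on the minus strand.
Crabp1: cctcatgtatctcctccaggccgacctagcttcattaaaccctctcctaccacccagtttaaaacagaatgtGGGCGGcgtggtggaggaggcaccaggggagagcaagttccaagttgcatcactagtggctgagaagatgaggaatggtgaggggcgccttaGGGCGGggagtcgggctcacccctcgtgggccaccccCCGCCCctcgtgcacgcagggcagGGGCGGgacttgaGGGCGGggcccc
Cyp26a1: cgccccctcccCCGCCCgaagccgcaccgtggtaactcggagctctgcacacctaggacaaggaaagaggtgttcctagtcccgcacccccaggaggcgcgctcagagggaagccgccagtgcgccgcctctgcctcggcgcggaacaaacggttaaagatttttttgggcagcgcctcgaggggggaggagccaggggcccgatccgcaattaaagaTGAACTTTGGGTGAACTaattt

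Direct repeats of a half-site spaced by 5 or by 2 bases were searched on both strands. The half-site was AGGTCA or its variant AGTTCA. The same with G first, GGGTCA, also counted, as did the variant GGTTCA. The match in Cyp26a1 reads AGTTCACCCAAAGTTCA and lies 32 to 16 bases before the RefSeq start. Of 32851 RefSeq promoter windows of 250 bases, 0.0883% held a repeat spaced by 5 and 0.174% a repeat spaced by 2, and the other promoters searched (Crabp1, Rbp4, Cyp26b1, Dhrs3, Aldh1a2) held neither. Crabp1 held 5 GC boxes, a motif found in 32.7% of all windows. The TCF/LEF core ATCAAAG, found in 3.21% of windows, was present in Rbp4 at chr19:38125345-38125351 on the minus strand and in no other of the 6. The TATA box TATAAA, found in 12.4% of windows, was present in Cyp26b1 alone among the 6. The motifs were searched on both strands and none of the matches overlapped another, and the windows of Cyp26a1 (240 bases) and Cyp26b1 (152 bases) were shorter than the rest. A match is a description and says nothing of whether a factor binds there.

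The 9 genes did not move as a group. Crabp1 rose with induction in ESCs, Crabp1 and Stra6 rose on day 4 in the cells that had been induced (for Stra6 the change was not shown to differ from that of the knockout), Crabp2 rose and Dhrs3 and Aldh1a3 fell on day 4 in the knockout and the induced cells, Rbp4 moved within a narrow range, and Cyp26a1, Cyp26b1 and Aldh1a2 stayed near the counting floor in all 8 groups. In bulk samples fewer cells of a type and less RNA per cell cannot be told apart, and this holds for every difference given here. In ESCs, 2 of the 9 were called between C1M and C1 by edgeR's quasi-likelihood test at an adjusted p under 0.05 (Crabp1 higher, Rbp4 lower), beside 26.3% of all tested genes, and 3 between C1H and C1 (Crabp1 higher, Dhrs3 and Aldh1a3 lower), beside 25.9%. These comparisons share the C1 libraries.

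From ESCs to day 4, 3 of the 9 were called between C1T and C1 (Crabp2 higher, Dhrs3 and Aldh1a3 lower), beside 49.2% of all tested genes. Between C1MV and C1M 6 were called, with Crabp1, Crabp2, Stra6 and Rbp4 higher and Dhrs3 and Aldh1a3 lower, beside 45.8%. The same comparison of C1MDT with C1M called 5 (52.4% of all genes), of C1HV with C1H 5 (47%) and of C1HDT with C1H 5 (55.7%), in each case Crabp1, Crabp2 and Stra6 higher and Dhrs3 and Aldh1a3 lower. The counts of 5 are close to the background share, and all are given as a description of 9 genes chosen by name. Aldh1a3 was kept for testing through the ESC libraries and Stra6 through those of day 4, where each was high. Their calls between ESCs and day 4 are therefore no independent support, and the counts include them.

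Among the day 4 groups, 1 gene (Crabp1) was called between C1MV and C1T, beside 30.2% of all tested genes, and 3 between C1HV and C1T (Crabp1 higher, Dhrs3 and Cyp26b1 lower), beside 28%. With constant induction the counts were 6 for C1MDT against C1T (33.4% of all genes; Crabp1, Crabp2 and Stra6 higher, Dhrs3, Rbp4 and Aldh1a3 lower) and 5 for C1HDT against C1T (33.5%; the same without Aldh1a3). All 4 comparisons share the C1T libraries. Constant against withdrawn induction called 3 in the middle fraction (Crabp1 and Crabp2 higher, Dhrs3 lower; 12.6% of all genes) and 2 in the high fraction (Crabp1 and Crabp2 higher; 15.9%).

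No difference between the middle and the high fraction passed that threshold in the 9 genes. The quasi-likelihood test called 0 of 9 for C1H against C1M (1.77% of all genes), with 1 at an unadjusted p under 0.05 (Dhrs3), where DESeq2 had 0 and edgeR's likelihood ratio test 1. It called 0 for C1HV against C1MV (0.00654%), with 2 at an unadjusted p under 0.05 (Crabp2 and Dhrs3) by each of the 3 tests. It called 0 for C1HDT against C1MDT (0% of all genes), with 0 at an unadjusted p under 0.05 by each test.

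**Figure D1:**
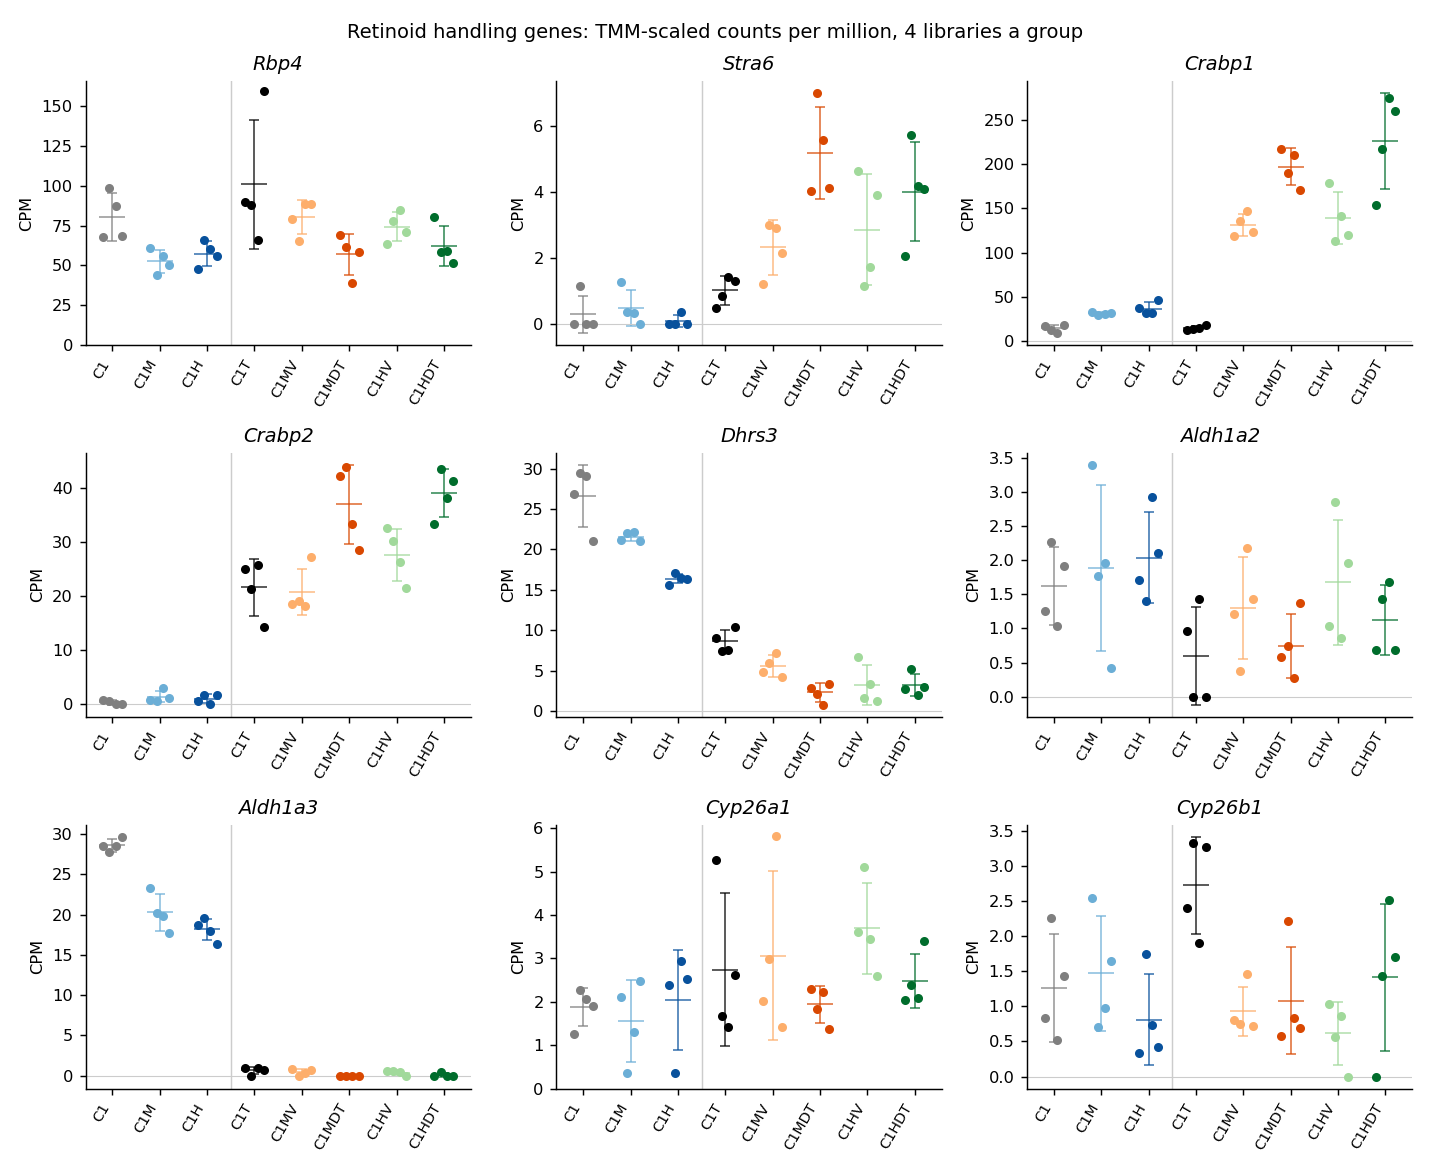
Level of each of the 9 genes (vertical axes, CPM after TMM scaling, linear, with a separate range for each gene) in the 8 groups, where points are libraries, horizontal marks group means, and bars the SD over 4 libraries. The grey vertical line separates ESCs from day 4, with Crabp1 at 12.9 to 18.3 CPM in C1T and at 114 CPM or more in the other day 4 libraries.

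Among the carriers, Rbp4 was well counted in every library (109 to 245 reads). It stood at 68.0, 98.5, 87.2 and 68.4 CPM in C1, at 60.7, 44.0, 55.7 and 50.3 CPM in C1M and at 47.7, 65.9, 60.4 and 55.9 CPM in C1H. Each C1M and C1H library lay below each C1 library. The test called the difference for C1M (log2 fold change -0.60 ± 0.22 SE, adjusted p = 0.0419) and not for C1H (adjusted p = 0.109). The C1M call was lost with scaling by library size only (adjusted p = 0.0758), with no filter on low counts (0.0678), in the fit with a replicate block (0.0588), and without any 1 of C1 replicate 2, C1 replicate 3 or C1M replicates 2 to 4 (adjusted p = 0.0557 to 0.125).

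On day 4 Rbp4 stood at 89.7, 87.8, 66.2 and 160 CPM in C1T, with replicate 4 far above the others. It was 79.0, 65.6, 88.6 and 88.4 CPM in C1MV and 69.2, 61.5, 39.1 and 58.1 CPM in C1MDT. In the high fraction it was 63.5, 77.9, 85.1 and 70.9 CPM in C1HV and 80.6, 58.7, 59.0 and 51.4 CPM in C1HDT. The withdrawn C1MV libraries were above all C1M libraries (0.60 ± 0.21 on the log2 scale, adjusted p = 0.0236, lost without C1M replicate 2, 0.0625, or C1MV replicate 3, 0.0617), while C1MDT overlapped C1M. Against C1T, Rbp4 was lower in C1MDT (-0.83 ± 0.21, adjusted p = 0.0033) and C1HDT (-0.65 ± 0.21, adjusted p = 0.0166), although the libraries overlapped in both. The C1HDT call was lost without C1T replicate 4 (-0.36, adjusted p = 0.0978) and without C1HDT replicate 4 (-0.56, adjusted p = 0.0685), and in fits of only the groups compared both calls were lost (adjusted p = 0.0918 and 0.146).

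Rbp4 moved with Ttr, which encodes transthyretin, and with Apoa1, an apolipoprotein gene, both secreted products of visceral endoderm and liver. C1T replicate 4 was also the highest C1T library for Ttr (327 CPM beside 158 to 189 CPM in the other 3) and for Apoa1 (967 CPM beside 583 to 696 CPM). Over the 32 libraries, the deviations from the group means of log2(CPM + 1) correlated at r = 0.81 between Rbp4 and Ttr and r = 0.90 between Rbp4 and Apoa1, and at 0.74 and 0.87 without C1T replicate 4. The genes share libraries and depth, and these correlations, computed after the values were seen, are descriptions. For the endoderm genes Dab2 and Gata6 the values with Rbp4 were r = -0.27 and -0.32, and -0.097 and -0.24 without C1T replicate 4. The part of endoderm-like cells in the Rbp4 differences was not tested.

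**Figure D2:**
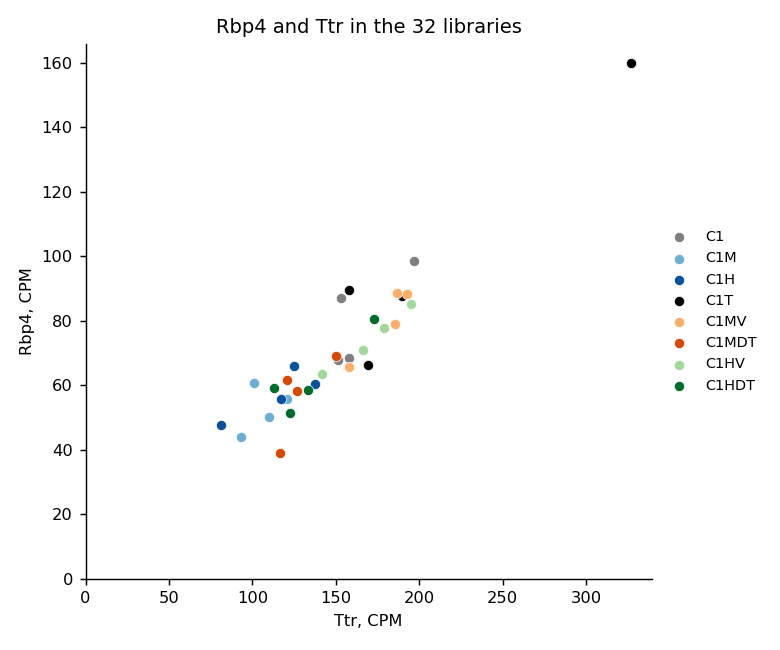
Rbp4 (vertical axis, CPM) against Ttr (horizontal axis, CPM) in the 32 libraries, coloured by group, on linear axes that start at 0. The highest point on both axes is C1T replicate 4, at 327 CPM for Ttr and 160 CPM for Rbp4.

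Stra6, the retinol receptor gene, was barely detected in ESCs, with 2 reads in all of C1, 5 in C1M and 1 in C1H. On day 4 it had 8 reads in C1T, with 0.480, 0.832, 1.43 and 1.30 CPM. The cells that had been induced held more, with 1.21, 3.00, 2.91 and 2.14 CPM in C1MV and 4.65, 1.14, 1.72 and 3.90 CPM in C1HV. Under constant induction it stood at 4.04, 7.00, 5.58 and 4.13 CPM (C1MDT) and 2.04, 5.72, 4.19 and 4.08 CPM (C1HDT). Every C1MDT and C1HDT library was above every C1T library, and the withdrawn groups overlapped C1T.

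The test called the Stra6 difference from C1T with constant induction (2.35 ± 0.56 for C1MDT, adjusted p = 0.000312, and 1.93 ± 0.59 for C1HDT, adjusted p = 0.0057). The withdrawn groups did not pass (adjusted p = 0.158 for C1MV and 0.084 for C1HV), nor did C1T against C1 (1.80 ± 1.02, adjusted p = 0.137). Without C1 replicate 2, which held both C1 reads, C1T against C1 was called (4.32, adjusted p = 0.0146), and C1HV against C1T was called without C1HV replicate 2 (1.71, adjusted p = 0.0435). From ESCs to day 4 Stra6 rose 11.3-fold from C1M to C1MDT in pooled reads (95% counting interval 4.58 to 36.2) and 42.1-fold from C1H to C1HDT (7.14 to 1705), the latter against a single read. Such intervals cover counting error only. Replicate 1 held 3 of the 5 Stra6 reads of C1M. Without 1 library the fitted log2 fold change of Stra6 ranged from 3.01 to 4.22 for C1MDT against C1M and from 4.50 to 6.23 for C1HDT against C1H. The gene lies across Ccdc33 on the opposite strand, and the strand setting of the counting is not given in the sources used here, so reads of the 2 genes might be mixed.

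Crabp1, the cytoplasmic retinoic acid binding protein gene, showed the widest range of group means in CPM, though not in fold. In ESCs it stood at 17.2, 13.0, 9.34 and 18.7 CPM in C1, at 33.5, 29.8, 31 and 31.8 CPM in C1M and at 37.1, 32.4, 31.5 and 46.6 CPM in C1H. All induced ESC libraries lay above all C1 libraries. The rise was 2.16-fold in the means of C1M over C1 (log2 fold change 1.09 ± 0.26 SE, adjusted p = 0.00183) and 2.54-fold for C1H (1.31 ± 0.25, adjusted p = 0.000178), while C1H and C1M overlapped (adjusted p = 0.74).

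Crabp1 was not called between the knockout cells before and after differentiation. The C1T libraries held 12.9, 13.7, 14.8 and 18.3 CPM, within the C1 range, and the log2 fold change was -0.0081 ± 0.31 (adjusted p = 0.999). In cells that had been induced it stood far higher on day 4, at 119, 136, 147 and 123 CPM in C1MV and 179, 114, 142 and 120 CPM in C1HV. The constantly induced cells held 217, 190, 210 and 171 CPM (C1MDT) and 154, 218, 274 and 260 CPM (C1HDT). All 16 of these libraries lay above all C1T and all ESC libraries.

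The means of the withdrawn groups were 8.79-fold (C1MV) and 9.29-fold (C1HV) above C1T, and those of the constantly induced groups 13.2-fold (C1MDT) and 15.2-fold (C1HDT), with log2 fold changes of 3.16 ± 0.21, 3.24 ± 0.21, 3.74 ± 0.20 and 3.94 ± 0.20 and adjusted p-values of 5.88e-13, 4.45e-13, 4.13e-15 and 9.45e-16. In C1MV and C1HV Crabp1 was above C1T on day 4 of culture without either inducer. Constant induction was 1.5-fold above withdrawal in the middle fraction (0.58 ± 0.14, adjusted p = 0.00663), with no overlap of the libraries, and 1.63-fold in the high fraction (0.70 ± 0.14, adjusted p = 0.000898), where C1HDT replicate 1 lay within the C1HV range.

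Crabp2, the paralog that delivers retinoic acid to its receptors, differed mainly between ESCs and day 4. It had 3 reads in all of C1, 16 in C1M and 11 in C1H, with the ESC libraries at 0 to 2.93 CPM. On day 4 it stood at 24.9, 21.2, 25.7 and 14.4 CPM in C1T, 18.5, 19.1, 18.2 and 27.1 CPM in C1MV and 32.5, 30.1, 26.2 and 21.5 CPM in C1HV. Constantly induced cells held 42.1, 43.8, 33.2 and 28.5 CPM (C1MDT) and 33.3, 43.4, 38.1 and 41.2 CPM (C1HDT). All 20 day 4 libraries were above all 12 ESC libraries, and C1T and C1MV overlapped.

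From C1 to C1T Crabp2 rose 60.03-fold in pooled reads (95% counting interval 20.2 to 294, adjusted p = 1.87e-24) against 3 reads in C1, the fitted log2 fold change of 5.71 becoming 6.61 without C1 replicate 1. In the induced cells the log2 fold changes from ESCs were 3.70 ± 0.31 (C1MV) to 5.20 ± 0.30 (C1HDT). Without 1 library these 2 values ranged from 3.48 to 4.41 (C1MV) and from 4.82 to 5.62 (C1HDT). The constantly induced groups were called higher than C1T (1.71-fold in C1MDT, adjusted p = 0.000489, and 1.81-fold in C1HDT, adjusted p = 7.25e-05). The withdrawn groups did not pass, at 0.961-fold in C1MV (adjusted p = 0.7) and 1.28-fold in C1HV (0.201). Constant induction exceeded withdrawal 1.78-fold in the middle fraction (adjusted p = 0.000149). In the high fraction it was 1.41-fold (0.49 ± 0.18, adjusted p = 0.0418), a call lost with edgeR's RLE size factors (0.0572), with DESeq2 (0.0822) and without 6 of the 8 libraries in turn (C1HV or C1HDT replicates 2 to 4, adjusted p up to 0.169). The last 500 bases of the annotated Crabp1 and Crabp2 transcripts shared no identical run longer than 9 bases, beside reads of 100 bases.

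**Figure D3:**
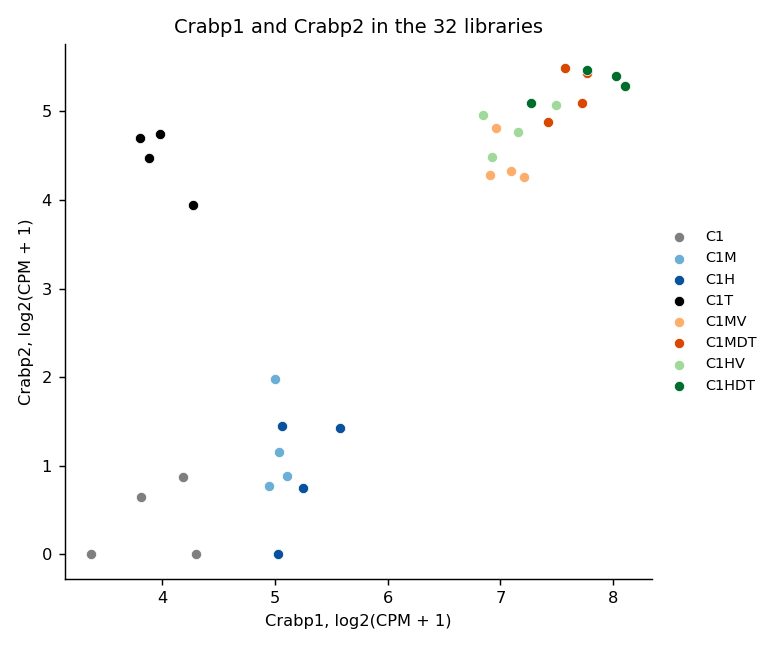
Crabp2 (vertical axis, log2(CPM + 1)) against Crabp1 (horizontal axis, log2(CPM + 1)) in the 32 libraries, coloured by group. The C1T libraries stand with C1 along the Crabp1 axis (12.9 to 18.3 CPM) and with the other day 4 libraries along the Crabp2 axis (14.4 to 25.7 CPM).

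Dhrs3, which encodes the enzyme that returns retinal to retinol and is itself known as a retinoic acid target, was highest in C1. It stood at 26.8, 29.4, 29.1 and 21.1 CPM in C1, 21.2, 22.0, 22.2 and 21.0 CPM in C1M and 15.7, 17.1, 16.5 and 16.4 CPM in C1H. The C1H libraries lay below all others of the ESC groups. The difference was called for C1H against C1 (-0.69 ± 0.20, adjusted p = 0.00547) and not for C1M against C1 (adjusted p = 0.281).

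On day 4 Dhrs3 was lower still, at 9.11, 7.49, 7.62 and 10.4 CPM in C1T, 4.84, 6.00, 7.27 and 4.28 CPM in C1MV and 6.71, 1.71, 3.44 and 1.30 CPM in C1HV. It was 2.88, 2.21, 0.837 and 3.44 CPM (C1MDT) and 2.72, 5.25, 2.09 and 3.06 CPM (C1HDT) under constant induction. No day 4 library reached the ESC range. The fall was 3.07-fold in the means from C1 to C1T (-1.63 ± 0.24, adjusted p = 1.12e-09) and 3.86-fold to 9.22-fold in the induced cells. Against C1T it was lower in C1MDT (3.70-fold, adjusted p = 1.74e-06), C1HV (2.63-fold, adjusted p = 0.00164) and C1HDT (2.64-fold, adjusted p = 0.000222), and C1MV did not pass (adjusted p = 0.154).

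Dhrs3 was lower with constant induction than with withdrawal in the middle fraction (2.39-fold, -1.36 ± 0.37, adjusted p = 0.00476), with no overlap of the libraries, but the call was lost without C1MDT replicate 3, the library with 3 reads (-1.002, adjusted p = 0.0845). In the high fraction the means were 3.29 CPM (C1HV) and 3.28 CPM (C1HDT), adjusted p = 0.909. Whether the 2 fractions differed in this was tested directly and did not pass (adjusted p = 0.495).

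Of the dehydrogenases that make retinoic acid, Aldh1a3 was expressed in ESCs and nearly absent on day 4. It stood at 28.5, 27.7, 28.5 and 29.7 CPM in C1, 23.3, 20.2, 19.9 and 17.7 CPM in C1M and 18.7, 19.5, 17.9 and 16.4 CPM in C1H. All C1M and C1H libraries were below all C1 libraries, a difference called for C1H (-0.65 ± 0.20, adjusted p = 0.0099) and just missed for C1M (-0.50 ± 0.20, adjusted p = 0.0557). C1M passed in 3 of the other settings, with adjusted p-values of 0.0276 by the likelihood ratio test, 0.0378 with a stricter filter and 0.015 in a fit of C1 and C1M alone.

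On day 4 Aldh1a3 had 5 reads in all of C1T, 4 and 3 in the withdrawn C1MV and C1HV, and 0 and 1 in the constantly induced C1MDT and C1HDT, all libraries being at the counting floor. The level was 46.5-fold lower in C1T than in C1 in pooled reads (95% counting interval 19.7 to 145) and at least 59.5-fold lower in C1MDT than in C1M, the lower end of the 95% counting interval for 0 against 216 pooled reads. The test also called C1MDT against C1T (adjusted p = 0.0161), a comparison of 0 with 5 reads whose libraries overlap.

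Aldh1a2, the main synthesising enzyme of the early embryo, had 0 to 8 reads in every library and group means of 0.597 CPM (C1T) to 2.03 CPM (C1H). It was called in none of the 16 comparisons by the quasi-likelihood test, the lowest adjusted p being 0.099 (C1MDT against C1M). That comparison was called by the same test without C1M replicate 4 (-1.59, adjusted p = 0.0452). Aldh1a2 had 103 reads in all 32 libraries.

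The breakdown genes were close to the floor too. Cyp26a1, whose promoter is printed above and whose transcription is known to follow retinoic acid, had 1 to 16 reads per library, with group means from 1.56 CPM (C1M) to 3.69 CPM (C1HV). The C1HV libraries held 3.61, 5.12, 3.44 and 2.6 CPM and overlapped every other group but C1M, C1 and C1MDT. None of the 16 comparisons was called for Cyp26a1 in the fit of all libraries (lowest adjusted p = 0.0772, C1MV against C1M). That comparison was called by the same test without C1M replicate 4 (1.39, adjusted p = 0.0440), C1MV replicate 1 (1.28, 0.0482) or C1MV replicate 4 (1.28, 0.0396). Outside these 16, C1HV was called higher than C1M (1.26 ± 0.53, adjusted p = 0.0422), a comparison across both day and fraction.

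Cyp26b1 had 0 to 8 reads per library, with 2.40, 3.33, 1.91 and 3.26 CPM in C1T and 1.03, 0.569, 0.860 and 0 CPM in C1HV. Of the 16 comparisons for each of the 2 breakdown genes this was the single call (4.43-fold in the means, -1.96 ± 0.75, adjusted p = 0.0369), from 22 against 5 reads, and it was lost with DESeq2 (adjusted p = 0.0571), without a filter on low counts (0.0537) and without any of 6 of the 8 libraries (C1T replicates 1, 2 and 4 and C1HV replicates 2 to 4).

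**Figure D4:**
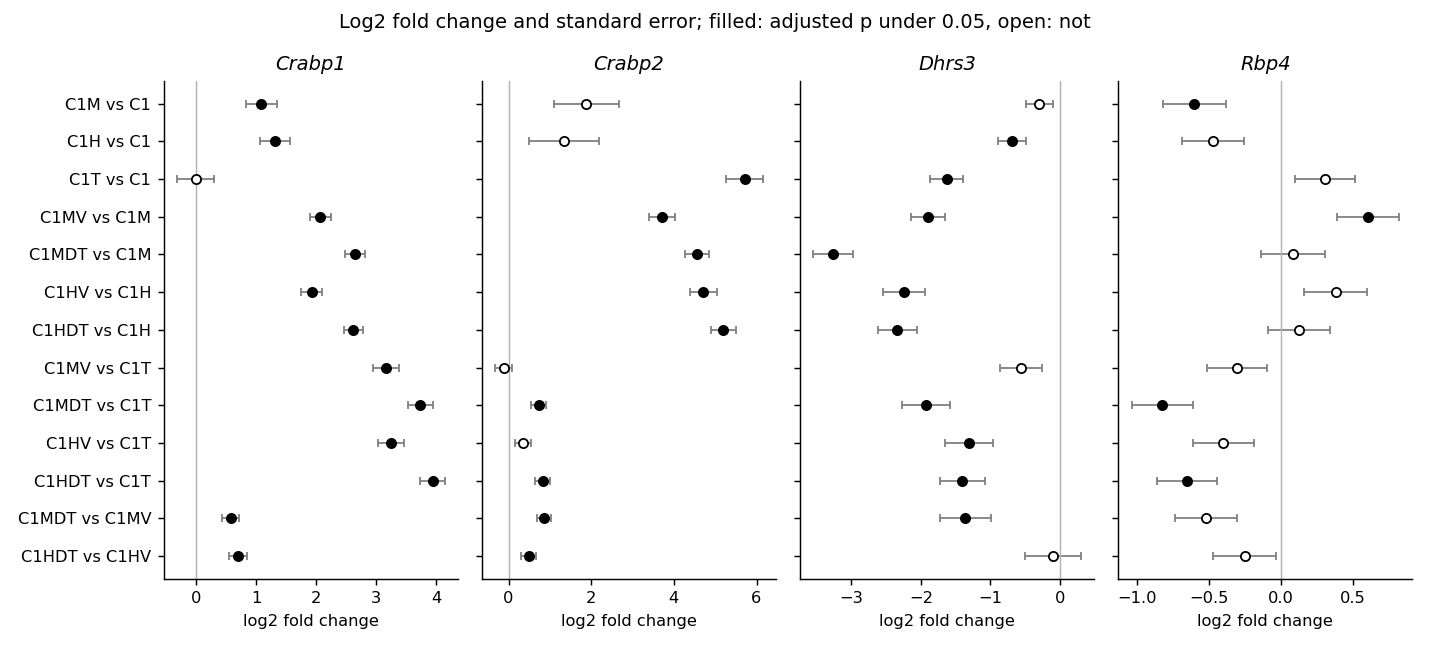
Log2 fold change (horizontal axes, with a separate range for each gene) of Crabp1, Crabp2, Dhrs3 and Rbp4 in 13 comparisons (vertical axis), with bars for the standard error of the fit. Filled points passed an adjusted p of 0.05 in edgeR's quasi-likelihood test, as Crabp1 did in all but C1T against C1, and open points did not.

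Whether day 4 differentiation changed a gene more in the induced cells than in the knockout was tested as a difference of 2 changes. Of the 9 genes, 1 was called for C1MV and C1M against C1T and C1 (22.5% of all tested genes), 3 with C1MDT (24.4%), 1 with C1HV (21.9%) and 1 with C1HDT (25.2%). Crabp1 was called in all 4, by 2.07 ± 0.36, 2.65 ± 0.36, 1.93 ± 0.36 and 2.63 ± 0.36 on the log2 scale, with adjusted p-values of 7.08e-05, 1.71e-06, 0.000164 and 1.47e-06. These 4 tests share C1 and C1T.

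The other 2 calls were in C1MDT. Dhrs3 fell further there than in the knockout (-1.63 ± 0.40, adjusted p = 0.000821), and Aldh1a3 had the fitted value -3.17 (adjusted p = 0.0487), which rests on 0 reads in C1MDT and 5 in C1T and was lost in most fits without 1 library (adjusted p up to 0.108). For Stra6 the rise was not shown to differ between induced and knockout cells (adjusted p = 0.916 with C1MV, 0.539 with C1MDT, 0.316 with C1HV and 0.211 with C1HDT). Nor was it for Crabp2, whose fitted differences were all negative, a smaller rise in the induced cells (-2.01 ± 0.80 with C1MV, adjusted p = 0.0579, and 0.316 to 0.689 with the others). The value with C1MV passed by the likelihood ratio test (adjusted p = 0.0395) and without C1 replicate 1, C1M replicate 1 or 2, C1T replicate 4 or C1MV replicate 4, in a range of -2.87 to -1.31 over the libraries left out. The difference between the fractions in the effect of constant induction called 0 of the 9 (0% of all genes), with 1 at an unadjusted p under 0.05 (Dhrs3) by the quasi-likelihood test, by DESeq2 and by the likelihood ratio test.

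Ordered by group mean, neighbouring groups seldom differed. For Crabp1 the order was C1HDT, C1MDT, C1HV, C1MV, C1H, C1M, C1T and C1, and the steps from C1MDT to C1HV (adjusted p = 0.021), from C1MV to C1H (2.73e-10) and from C1M to C1T (0.000674) passed. For Crabp2 the single step that passed was from C1MV to C1M (2.56e-21), for Dhrs3 from C1H to C1T (0.000532) and for Aldh1a3 from C1H to C1T (5.31e-21). In Rbp4, Stra6, Cyp26a1, Cyp26b1 and Aldh1a2 no neighbouring groups differed at that threshold.

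The genes with patterns most like these were sought among 12751 genes (12752 for Cyp26b1), by Pearson correlation of 8 group means of log2 CPM, which share libraries. For Crabp1 they were Lamb1 (r = 0.994), a laminin chain of basement membranes, Ddb1 (0.993) and Tmprss2 (0.993). For Crabp2 they were Arl4c (0.998), Ccna2 (0.996) and Cdc20 (0.996), the last a pair of cell cycle regulators. For Rbp4 they were Slco1b2 (0.997), a transporter of hepatocytes, the complement gene C3 (0.986) and Mgst1 (0.985). Dhrs3 was closest to Ceacam1 (0.994), Wdr62 (0.991) and Rogdi (0.988), and Aldh1a3 to Atg14 (0.999), Sik1 (0.999) and Gm9888 (0.998). For the 4 genes of low count the closest were Trmt2a, Rpl6 and Nt5c3 (Stra6), Hnf4a, Pnpla8 and Agap1 (Cyp26a1), Timm17a, Id3 and Lztfl1 (Cyp26b1), and Sun2, Nfya and Bend7 (Aldh1a2), at r = 0.943 to 0.992. Ranked by Spearman correlation instead, the named genes stood at ranks from 1 (such as Rpl6 for Stra6) to 628 (Cdc20 for Crabp2). For Crabp1, Lamb1 and Ddb1 ranked 51 and Tmprss2 123. With 8 points and so many genes, the correlations describe shape only, and the genes named depend on the measure.

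The other genes of the pathway were taken from lists of 39 genes, of which 32 were tested. In ESCs 6 were called between C1M and C1 (2 higher, 4 lower), beside 26.3% of all tested genes, and 11 between C1H and C1 (7 higher, 4 lower), beside 25.9%. The latter count was 7 without C1 replicate 1. Among those that rose was Fabp5, another carrier of retinoic acid, from 17.0 to 32.5 CPM in C1 to 84.1 to 127 CPM in C1M (1.89 ± 0.13, adjusted p = 4.45e-26). The retinoic acid receptor Rarg fell, from 111 to 117 CPM in C1 to 47.4 to 51.8 CPM in C1M (-1.20 ± 0.10, adjusted p = 3.96e-21), and so did the corepressor gene Ncor1 (-0.60 ± 0.06, adjusted p = 1.41e-14). Among the 16 tested genes of retinol and retinal metabolism, 0 were called for C1M and 2 for C1H.

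On day 4 several of these genes were highest in the knockout. Rarg stood at 393 to 438 CPM in C1T and at 144 to 248 CPM in the induced groups (C1MDT against C1T -0.84 ± 0.08, adjusted p = 1.6e-18). Rara (-0.88 ± 0.16, adjusted p = 2.71e-06) and Rxrg (-1.98 ± 0.42, adjusted p = 4.56e-05) were lower in C1MDT than in C1T too. In all, 11 of the 32 were called for C1MDT against C1T (2 higher, 9 lower), a share close to the 33.4% of all tested genes, and 14 for C1HDT (5 higher, 9 lower), beside 33.5%. The retinal reductase Rdh11 went the other way, with 82.2 to 92.1 CPM in C1MDT against 32 to 47 CPM in C1T (1.08 ± 0.12, adjusted p = 4.24e-14) and 45.4 to 49.2 CPM in C1MV (0.86 ± 0.11, adjusted p = 9.42e-10).

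Of 10 genes known to respond to retinoic acid, all tested, 8 were called from C1 to C1T (3 higher, 5 lower), beside 49.2% of all tested genes, and 7 between C1MDT and C1T (2 higher, 5 lower), beside 33.4%. Hoxb1 was at 0 to 0.479 CPM in C1, at 68.1 to 96.1 CPM in C1T and at 11.4 to 44.2 CPM in the induced day 4 groups (C1MDT against C1T -2.41 ± 0.19, adjusted p = 1.74e-17). In C1M against C1, 1 of the 10 was called higher and 2 lower, beside 26.3% of all tested genes called. In C1H against C1, 2 were called higher and 2 lower, beside 25.9%. Stra8 was the 1 called higher in C1M (1.44 ± 0.16, adjusted p = 1.4e-13), and was lower in C1MDT than in C1T (-2.35 ± 0.34, adjusted p = 4.11e-09). Tgm2, at 178 to 201 CPM in C1, was at 3.34 to 5.87 CPM in C1T (-5.46 ± 0.17, adjusted p = 4.19e-65). Some of these genes, such as Rarb and Nrip1, stand also in the lists above, and Hoxb1 and Cdx1 answer to other signals as well.

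**Figure D5:**
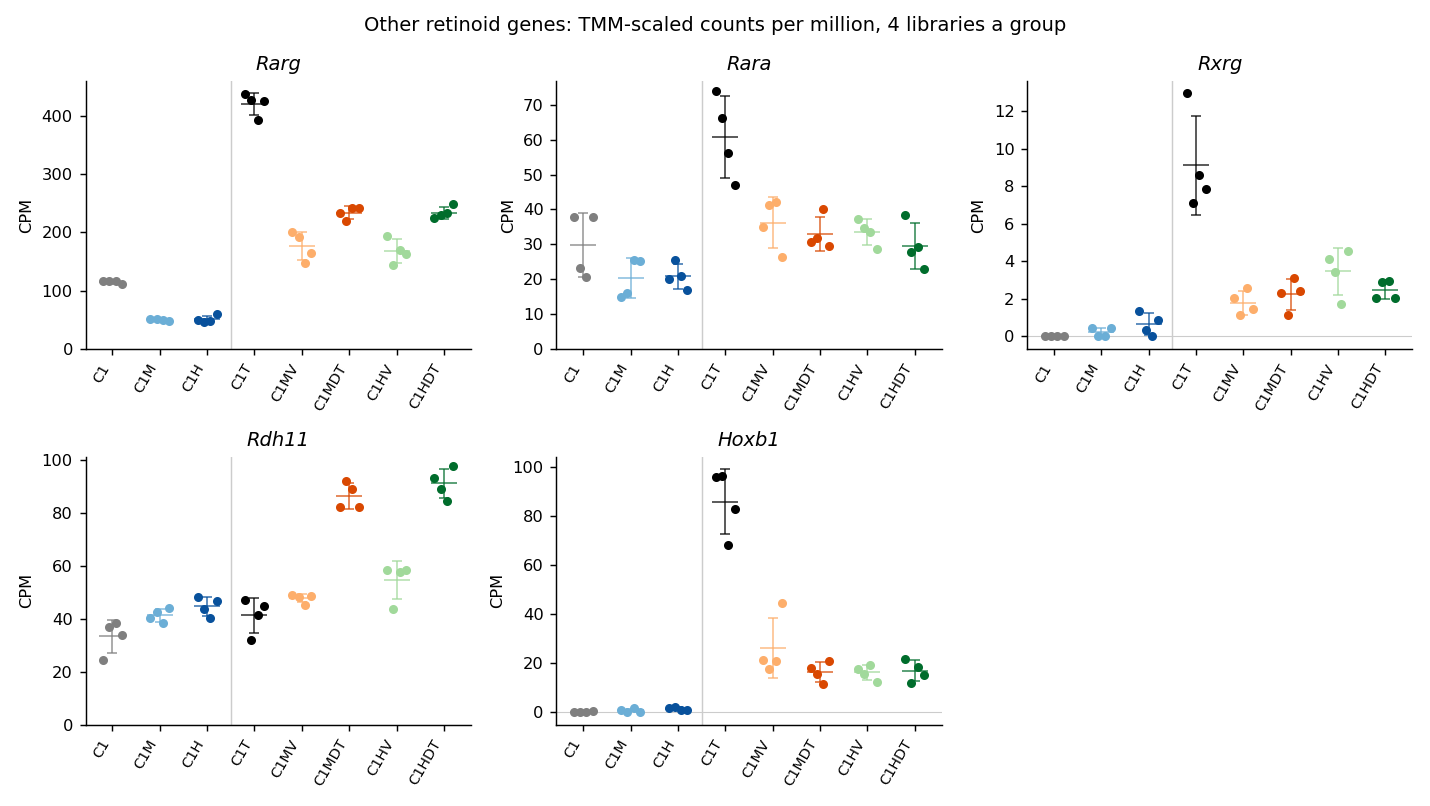
Levels (vertical axes, CPM, linear, a separate range for each gene) of 5 other retinoid genes in the 8 groups, with points for libraries, marks for means and bars for the SD over 4 libraries. Rarg, Rara, Rxrg and Hoxb1 have their highest mean in C1T (421 CPM for Rarg), and Rdh11 in C1HDT and C1MDT.

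Markers of cell types moved with these differences. The primitive and visceral endoderm list of 11 genes, less Ttr and Apoa1 which dominate its sum (left out after the values were seen), stood at 12.4 to 25.2 CPM in C1, 32.2 to 44.3 CPM in C1M, 32.3 to 38.8 CPM in C1H and 13.7 to 28.1 CPM in C1T. In ESCs the C1M and C1H sums of this shortened list lay above those of C1 without overlap, while the sums of the whole list went the other way. Of 10 tested genes of the whole list, 3 were called higher and 2 lower in C1M (26.3% of all tested genes called). In C1H 1 was called higher and 2 lower (25.9%). The shortened list reached 298 to 508 CPM (C1MV) and 416 to 473 CPM (C1HV) after withdrawal and 669 to 792 CPM (C1MDT) and 647 to 794 CPM (C1HDT) under constant induction. In each of these 4 groups 8 of the 10 tested genes of the whole list were called higher than in C1T, beside 28% to 33.5% of all tested genes called in either direction. The other 2, Ttr and Apoa1, were called lower in C1MDT and C1HDT. Afp, a defining gene of visceral endoderm on the list, was at 0 to 1.14 CPM in all libraries and was not tested. The whole list with Ttr and Apoa1 summed to 711 to 925 CPM in C1, 473 to 622 CPM in C1M and 430 to 655 CPM in C1H. The induced ESC libraries thus lay below those of C1. On day 4 the whole list summed to 780 to 1307 CPM in C1T and 1092 to 1415 CPM in the induced libraries. The group order of Crabp1 followed the endoderm genes Dab2 and Gata6 (r = 0.98 and 0.97 over the 8 group means of log2(CPM + 1)), while within groups it did not (r = 0.031 and 0.039 over the deviations of 32 libraries). The epiblast-like list of 4 genes summed to 1086 to 1376 CPM in C1T, 592 to 682 CPM in the withdrawn and 925 to 1092 CPM in the constantly induced libraries. The neural list of 7 genes summed to 177 to 213 CPM in C1T and 214 to 287 CPM in the induced day 4 libraries, and its genes went both ways. Against C1T, 1 was called higher and 1 lower in C1MV (30.2% of all tested genes called) and 2 higher and 1 lower in C1HV (28%). Under constant induction 3 were called higher and 1 lower in C1MDT (33.4%) and 4 higher and 1 lower in C1HDT (33.5%). The pluripotency list summed to 787 to 924 CPM in C1T, 1074 to 1440 CPM in the withdrawn and 494 to 668 CPM in the constantly induced libraries, with 6 of its 7 genes called lower in C1MDT than in C1MV, beside 12.6% of all tested genes called, and 6 lower and 1 higher in C1HDT than in C1HV, beside 15.9%. The same list had 5 genes called lower and 1 higher in C1M than in C1, and 4 lower in C1H. The part of these cell types in the differences of Crabp1, Crabp2, Stra6, Dhrs3, Aldh1a3 and Rbp4 was not tested.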

How the data were processed

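RNA of 32 libraries (8 groups of 4, grouped by the labels) was sequenced as QuantSeq 3′ single-end reads of 100 bases. The authors trimmed the reads, aligned them with STAR to mm10 and deposited whole read counts per gene from htseq-count, whose strand setting is not given in the sources used here. The rows that name no gene were left out (reads in no gene were 10.1% to 23.1% of uniquely aligned reads). A single edgeR 4.0.16 (R 4.3.3) quasi-likelihood fit of all libraries, with TMM scaling, covered the 15280 genes at 1 CPM or more in at least 4 libraries, with Benjamini-Hochberg adjustment over all of them per comparison and a threshold of 0.05. Levels are TMM-scaled CPM, and ± is the SD over 4 libraries for levels and the SE for log2 fold changes. Alternatives were DESeq2 1.42.0, edgeR's likelihood ratio test, other scalings and filters, the replicate block, fits restricted to the compared groups, and leaving out 1 library at a time. The scripts were tested on simulated data. Counting intervals of pooled reads are at 95%.

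The 9 genes and all lists were chosen with earlier results of these data known. All 9 were named, with the 3 genes of most similar pattern (Pearson, at a mean of at least 1 log2 CPM) and genes of the fixed lists. Replicate numbers did not pair the samples: the deviations of same-numbered libraries correlated at -0.00163 on average. The values of 1 gene of these lists, which is included in the counts, are not reported here.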

Additional observations from a re-analysis of the deposited data

Results flagged for a closer look

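In 6 of 72 groups of 4 libraries 1 library stood far from the other 3 by Dixon's criterion. Chance meets it in about 1 in 20 groups of continuous values, a rate that does not hold for counts of a few reads. Where 3 libraries are at 0, any read in the remaining library meets the criterion. Crabp2 was at 27.1 CPM (38 reads) in C1MV replicate 4, beside 18.2 to 19.1 CPM in the others. Cyp26b1 was at 1.45 CPM (4 reads) in C1MV replicate 3 and at 2.21 CPM (6 reads) in C1MDT replicate 2. Stra6 was at 1.13 CPM (2 reads) in C1 replicate 2 and at 0.366 CPM (1 read) in C1H replicate 3, and Aldh1a3 at 0.477 CPM (1 read) in C1HDT replicate 2, with the other 3 libraries at 0 in each case.

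In 6 of 45 tests the change from 1 group to another differed by edgeR's quasi-likelihood test. Against the change of the knockout, the test called 22.5% of all tested genes with C1MV and 24.4% with C1MDT. It called 21.9% with C1HV and 25.2% with C1HDT. For the difference between the fractions in the effect of constant induction the share was 0%. The count of 6 is a description and no excess over these shares. The change of Crabp1 from ESCs to day 4 exceeded that of the knockout by 2.07 (C1MV, adjusted p = 7.08e-05), 2.65 (C1MDT, 1.71e-06), 1.93 (C1HV, 0.000164) and 2.63 (C1HDT, 1.47e-06) on the log2 scale. In C1MDT the change of Dhrs3 differed by -1.63 (0.000821) and the fitted change of Aldh1a3 by -3.17 (0.0487).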

How the results depend on the processing

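Of 55 calls among the 9 genes, 49 were lost in none of the 8 settings other than leaving out a library (Aldh1a3 in C1MDT against C1T had no value in the fit of only those groups), and 47 also in no fit without 1 library. The number called between C1HDT and C1HV was 1 in place of 2 with RLE size factors, library size only, DESeq2 and no filter, and 1 to 2 without a library. Between C1M and C1 it was 1 in place of 2 with library size only, no filter and the replicate block, 4 with the likelihood ratio test, and 1 to 4 without a library. For the difference of changes with C1MV it was 2 in place of 1 with the likelihood ratio test, which added Crabp2, and 1 to 2 without a library. The near-zero Crabp1 difference of C1T from C1 turned to 0.0043 with the likelihood ratio test and to 0.09, 0.14, 0.06 and 0.035 without C1 replicate 1, C1 replicate 4, C1T replicate 1 and C1T replicate 2, in a range of -0.15 to 0.14 over all 8 libraries left out. Fits of only the groups compared called Rbp4 also in C1H against C1 (adjusted p = 0.000566), C1HV against C1H (0.00323) and C1MDT against C1MV (0.00432). The cause of these changes was not tested. The samples share only a replicate number, and a fit with it as a replicate block lost 2 calls, Rbp4 in C1M against C1 (0.0588) and the Aldh1a3 difference of changes (0.0527). The Aldh1a3 call was also lost with DESeq2 (0.108) and no filter (0.079). Depth limits Stra6, Cyp26a1, Cyp26b1, Aldh1a2 and, on day 4, Aldh1a3, since 3 reads are worth 0.837 to 2.14 CPM.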
